A study of Mus musculus with 6 samples.

Results

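Transcripts of 6 enzymes of glycolysis and lactate formation were measured in soleus, a slow-twitch muscle of the lower leg, on 6 expression arrays. The genes were chosen by name, through the platform annotation of the array: the aldolases Aldoa and Aldoc, glyceraldehyde-phosphate dehydrogenase Gapdh, phosphoglycerate kinase Pgk1, and the lactate dehydrogenase chains Ldha and Ldhb. All 6 were on the array with 1 probe each, of 223 probes and 203 named genes in all, and all 6 gave a signal above 0 on all 6 arrays. The samples were untreated controls of the mouse strain C57Bl/6 whose titles mark them as wt, and total RNA from tissue cryosections, 3 µg per array, was used. All 6 titles also carry the code HUR, which the labels do not explain. Age, sex and the number of mice are not given in the labels, so the spread between the 6 samples, called controls 1 to 6, may be partly technical. With this single group no treatment was compared, and the questions asked of the data were how steady each enzyme was, whether the paralogous chains kept a fixed ratio, and which enzymes could serve to scale the arrays.

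Glycolysis turns glucose into pyruvate. Aldolase splits the hexose bisphosphate into triose phosphates, Gapdh oxidises the triose and captures phosphate, and Pgk1 makes ATP from the product. Lactate dehydrogenase then interconverts pyruvate and lactate, and its tetramers mix the A chain of Ldha, typical of fast glycolytic muscle, with the B chain of Ldhb, typical of heart and oxidative fibres. Aldoa is the aldolase of muscle, while Aldoc is best known from brain. Gapdh and Pgk1 are widely used as reference genes for scaling expression data.

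The promoters of Pgk1, Ldha and Ldhb are shown because the levels of these genes tracked each other most closely over the 6 arrays (r of 0.92 to 0.97). Each run is the 250 bases before a RefSeq transcript start in GRCm38.p6, written 5′ to 3′ on the gene's strand. Capitals mark ACGTG on either strand (CACGT on the other), a form of the core of the hypoxia response element. It also lies inside the E-box CACGTG. Other forms of that core were neither marked nor counted. The Pgk1 run is chrX:106186850-106187099, the Ldha run chr7:46845554-46845803, both on the plus strand, and the Ldhb run chr6:142507958-142508207, on the minus strand.
Pgk1: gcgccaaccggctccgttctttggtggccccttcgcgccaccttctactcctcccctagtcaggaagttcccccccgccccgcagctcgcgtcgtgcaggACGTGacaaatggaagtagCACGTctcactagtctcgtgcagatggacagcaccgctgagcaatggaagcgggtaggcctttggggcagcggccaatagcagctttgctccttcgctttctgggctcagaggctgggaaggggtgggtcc
Ldha: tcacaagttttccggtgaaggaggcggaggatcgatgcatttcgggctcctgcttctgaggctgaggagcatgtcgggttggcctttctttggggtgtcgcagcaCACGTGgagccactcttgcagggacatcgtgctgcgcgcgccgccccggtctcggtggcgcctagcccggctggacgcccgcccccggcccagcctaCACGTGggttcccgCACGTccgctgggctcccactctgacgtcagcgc
Ldhb: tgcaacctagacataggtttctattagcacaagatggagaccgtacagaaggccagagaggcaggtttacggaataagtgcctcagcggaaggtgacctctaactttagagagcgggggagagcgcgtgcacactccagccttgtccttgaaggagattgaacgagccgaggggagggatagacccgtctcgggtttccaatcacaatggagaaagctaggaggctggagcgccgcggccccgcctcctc
The Ldha run held 3 separate stretches of capitals, the Pgk1 run 2 and the Ldhb run 0. Ldha has another listed start, whose window (chr7:46846832-46847081) held 0, and the one printed was chosen because it holds the letters. Over the 10 listed starts of the 6 genes, 4 held the letters, against 16.6% of all 32851 starts in the table. Counted by gene they were in 3 of the 6 (Ldha, Pgk1 and Aldoa), against 18.5% of 27025 genes. The windows of both Aldoa starts that held them overlap and share 1 site. The letters GGGCGG, on either strand the core of the GC box, were in 5 of the 10 starts, from 4 genes, against 32.7% of all starts and 35.4% of all genes, with the same overlapping pair of Aldoa windows among the 5. These are matches of letters in a window of sequence and say nothing about binding.

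The arrays differed in brightness. The median intensity of the arrays differed 4.15-fold between the brightest, control 4, and the dimmest, control 2, so levels are given as log2 intensity relative to the median of 152 measured genes and unnamed probes on the same array. The noise bound of an array, the size of its most negative intensity, ran from 0.0018 to 0.0087, and 109 to 166 probes lay above it. The signal of Gapdh was 365 to 1332 times the bound and that of Aldoa 499 to 1666 times, that of Ldhb 128 to 345 times, that of Aldoc 16.2 to 80.3 times and that of Pgk1 13.8 to 38.9 times. Ldha stood only 1.56 to 3.53 times above the bound. Levels of different probes carry each probe's affinity and cannot be ranked against each other, so the low signal of Ldha is no measure of its share among lactate dehydrogenase transcripts. All 7 muscle fibre markers on the array (Myh7, Myh2, Myh1, Myh4, Mb, Des and Ttn) were above the bound in every control. They mark skeletal muscle, slow and fast myosins included, and do not tell soleus from another muscle.

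The aldolases differed in spread. Aldoa had deposited intensities of 2.34, 3.10, 4.24, 11.6, 2.75 and 3.00 in controls 1 to 6, which gave levels of 7.18, 7.76, 7.46, 7.61, 7.07 and 7.55. The mean was 7.44 ± 0.26 (SD, n = 6), and the highest control lay 1.62-fold above the lowest. Aldoa had the smallest SD of the 6 enzymes and ranked 15 from the smallest among the 152, but after quantile normalization Pgk1 had the smallest (0.24 against 0.30 for Aldoa) and after cyclic loess Gapdh did (0.20 against 0.31). Aldoc, the paralog, had levels of 2.45, 2.81, 1.95, 2.92, 1.91 and 3.17, with a mean of 2.54 ± 0.52 (SD, n = 6) and 2.39-fold between extremes. Controls 3 and 5 were low for Aldoc and controls 4 and 6 high. Its SD ranked 72 of 152, close to the middle.

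Gapdh and Pgk1, which act after aldolase, had like spreads. Gapdh levels were 7.61, 7.31, 7.27, 7.08, 6.64 and 7.22 (mean 7.19 ± 0.32, SD, n = 6), with 1.97-fold between control 1 and control 5. Without control 5 the SD of Gapdh was 0.20, so a large part of its spread came from that sample. Pgk1 levels were 2.52, 2.58, 1.94, 2.27, 1.67 and 2.12 (mean 2.18 ± 0.35, SD, n = 6), with 1.87-fold between control 2 and control 5. Both genes were above their own mean in controls 1 and 2 and far below it in control 5.

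The lactate dehydrogenase chains had the largest SDs relative to the array median, but that of Ldhb (0.53) was close to that of Aldoc (0.52). After quantile normalization and after cyclic loess the SD of Ldhb was 0.28, below those of Aldoa (0.30 and 0.31) and Aldoc (0.42 and 0.43), while Ldha stayed highest at 0.72 and 0.73. Relative to the mean of the fibre markers, described further on, Aldoc had the largest SD. Ldhb had deposited intensities of 0.930, 0.792, 0.841, 2.57, 0.430 and 0.621 and levels of 5.85, 5.79, 5.12, 5.44, 4.39 and 5.27 (mean 5.31 ± 0.53, SD, n = 6). Control 5 stood 0.74 below the next sample, and without it the SD of Ldhb was 0.32. Ldha had deposited intensities of 0.0120, 0.0097, 0.0068, 0.0216, 0.0045 and 0.0051 and levels of -0.42, -0.56, -1.83, -1.46, -2.19 and -1.65 (mean -1.35 ± 0.71, SD, n = 6). Its highest sample lay 3.40-fold above its lowest, and controls 1 and 2 stood apart above the other 4. The signal of Ldha was 3.53 times the noise bound in control 1 and 1.56 times in control 2. The part of background error in this gap was not tested. Controls 1 and 2 were also the arrays with the fewest probes above the noise bound, 143 and 109, against 153 to 166 on the others, and the part of this difference in the Ldha levels was not tested.

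**Figure D1:**
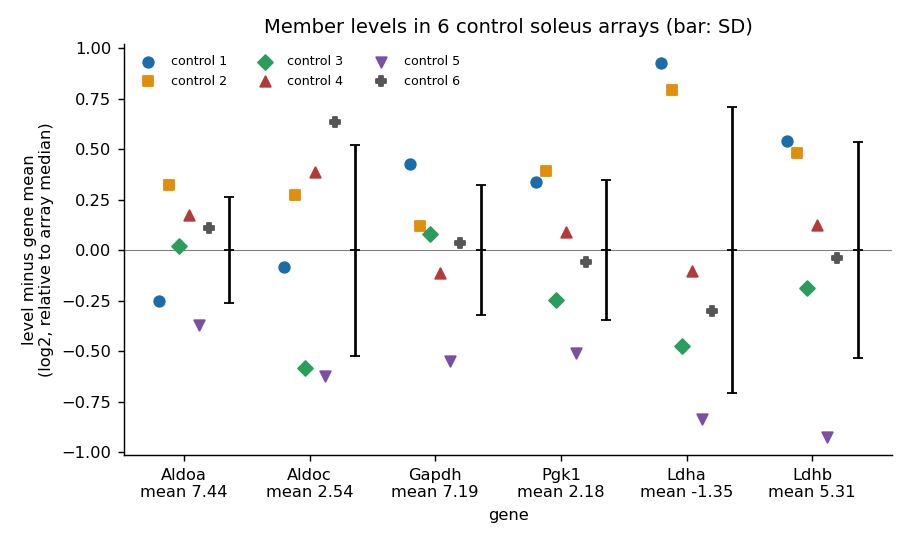
Levels of the 6 enzymes in controls 1 to 6, each drawn as its log2 level minus the mean of that gene, with the gene's mean printed under its name and 1 SD on either side drawn as a black bar (n = 6). Control 5 is the lowest sample for every enzyme on this scale, though only for 4 of them after quantile normalization, 3 after cyclic loess and 1 relative to the fibre markers, and Ldha spans the widest range, from -2.19 to -0.42.

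None of the 6 enzymes was set apart by its spread. Each variance was compared with a prior for genes of like intensity, in limma's fit over all 152, with a one-sided F test and Benjamini-Hochberg adjustment. For excess spread 0 of 6 members passed, against 1.32% of all genes tested, and the smallest adjusted p was 0.911, for Ldhb. For low spread 0 of 6 passed, against 0% of all genes tested, with adjusted p = 0.942 in limma for each, and 9 of the 152 had an unadjusted p under 0.05 in each direction. No member was among them, since the smallest unadjusted p in the limma F test was 0.272 for excess (Ldhb) and 0.178 for low spread (Aldoa). The SD of Aldoa was 0.647 times its prior, that of Pgk1 0.711 and that of Gapdh 0.790, while Ldhb reached 1.29. With 6 arrays an SD is loosely known: the 95% interval under a normal model was 0.16 to 0.65 for Aldoa, 0.20 to 0.79 for Gapdh, 0.33 to 1.31 for Ldhb and 0.44 to 1.74 for Ldha. The intervals of the 6 members overlap, and their order by SD is a description. The median SD was 0.43 for the members and 0.54 for all 152.

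**Figure D2:**
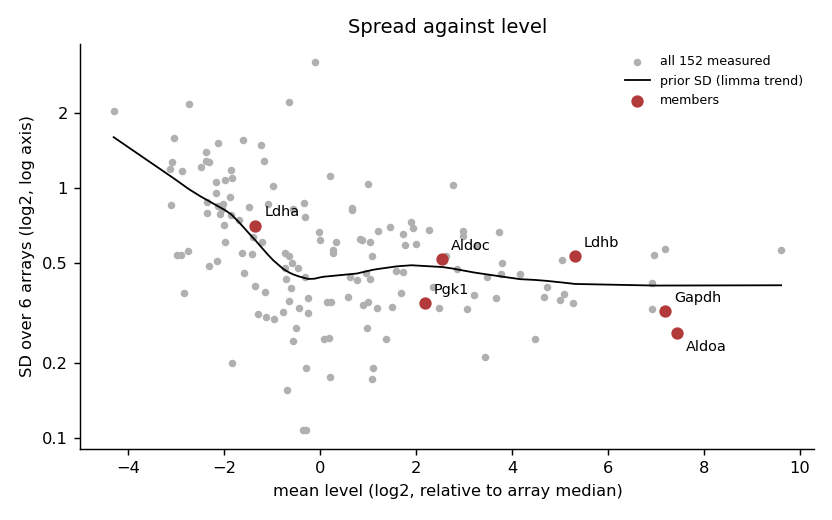
SD over the 6 arrays (log2 scale, on a log axis) against mean level for all 152 measured genes and unnamed probes in grey, with the 6 enzymes in red and limma's prior SD as a line. Aldoa, Gapdh and Pgk1 lie below the line at SDs of 0.26, 0.32 and 0.35, and Ldhb lies above it at 0.53.

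Ldhb and Ldha kept a narrower ratio than either level on its own when levels were taken from the array median, but not on every scale. The intensity of Ldhb was 77.5, 81.7, 123.7, 118.8, 95.5 and 121.8 times that of Ldha in controls 1 to 6, a ratio that carries the affinity of both probes and is no count of chains. On the log2 scale the ratio was 6.66 ± 0.30 (SD, n = 6), and the ratio of control 3 was 1.596 times that of control 1. Its SD of 0.30 compares with 0.71 for the Ldha level and 0.53 for the Ldhb level. After quantile normalization the SD of the ratio was 0.58 and after cyclic loess 0.54, above the SD of 0.28 that the Ldhb level had in both. Of all 11476 pairs of measured genes, 6.15% had a ratio with a smaller SD, and the median SD of a pair was 0.80. Among the members, Pgk1 to Ldhb (0.21), Gapdh to Pgk1 (0.22) and Gapdh to Ldhb (0.29) had smaller SDs, and the remaining pairs larger ones. A narrow ratio was thus not particular to these paralogs. The variation of the Ldhb to Ldha ratio was within reach of background error, because Ldha was dim. Moving both intensities up or down by the noise bound of the array changed the log2 ratio of a single array by 0.83 to 2.16 from end to end, more than its whole observed range of 0.67. The 6 intervals so formed shared the values from 6.50 to 6.75, and no difference in this ratio between controls was measurable beyond that bound.

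The ratio of Aldoa to Aldoc had the larger SD of the 2 ratios in the deposited intensities, 0.40 against 0.30, but the smaller after quantile normalization (0.35 against 0.58) and after cyclic loess (0.46 against 0.54). The intensity of Aldoa was 26.5, 30.9, 45.5, 25.8, 35.6 and 20.7 times that of Aldoc. On the log2 scale the ratio was 4.90 ± 0.40 (SD, n = 6), and control 3 lay 2.19-fold above control 6. The same shift by the noise bound changed a single array's log2 ratio by 0.03 to 0.17, against an observed range of 1.13, and the 6 intervals shared no value. Both probes lay far above the bound, so this shift is small by construction. It covers background error alone, and other technical error between samples was not measured. Controls 3 and 5, low in Aldoc, had the highest ratios, and control 6, high in Aldoc, had the lowest. The SD of the ratio, 0.40, was larger than that of Aldoa, 0.26, and 13.4% of all gene pairs had a smaller one. The ratio of Aldoa had a smaller SD to Pgk1 (0.31) and to Gapdh (0.35), and a larger one to Ldhb (0.45) and to Ldha (0.68).

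**Figure D3:**
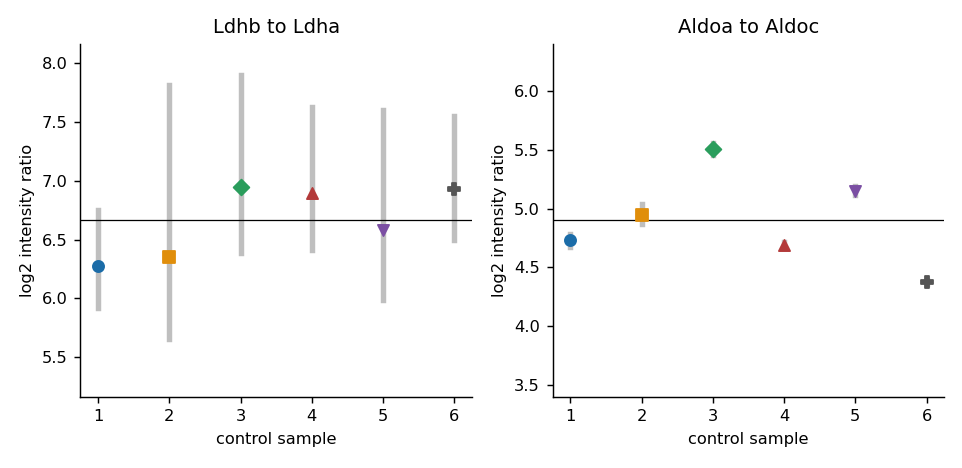
Within-array log2 intensity ratio of Ldhb to Ldha (left) and of Aldoa to Aldoc (right) in controls 1 to 6, on axes of equal span, with the mean as a line and a grey bar for the range when both intensities move up or down by the array's noise bound. The bars of Ldhb to Ldha overlap between 6.50 and 6.75, while those of Aldoa to Aldoc, both far above the bound, are short and spread from 4.36 to 5.56.

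Pgk1, Ldha and Ldhb kept nearly the same order of samples, and Gapdh followed mainly in controls 1 and 5. With all 6 samples the aldolases did not follow closely. Levels of all 15 pairs of members were compared over the 6 arrays with a two-sided exact permutation test over 720 pairings. Pgk1 and Ldhb had r = 0.97 (exact permutation p = 0.00556, rho = 0.943, exact p = 0.0167), and r was 0.98 without controls 2 and 5. Pgk1 and Ldha had r = 0.96 (exact permutation p = 0.00556, rho = 0.943, exact p = 0.0167), and r was 0.94 without the same controls. Ldha and Ldhb ranked the 6 samples identically, with r = 0.92 and an exact permutation p of 0.00278 for r and for rho, the smallest this design can give. Without controls 1 and 2, which stood apart, their r was 0.97. Ldha lay only 1.56 to 3.53 times above the noise bound. Its order of samples, and with it these r and ranks, was not tested against background error of that size. The relation of Gapdh with Ldha (r = 0.80, exact permutation p = 0.0333, rho = 0.771, exact p = 0.103) turned to -0.49 after cyclic loess and to -0.36 relative to the fibre markers, and was 0.35 without controls 1 and 5. Gapdh with Ldhb (r = 0.89, exact permutation p = 0.050, rho = 0.771, exact p = 0.103) and with Pgk1 (r = 0.79, exact p = 0.0722, rho = 0.714, exact p = 0.136) did not pass, with r of 0.17 and 0.11 without those controls. The number of probes above the noise bound had r = -0.73 with Pgk1, -0.77 with Ldha and -0.65 with Ldhb. Its r was -0.49 with Aldoa, -0.44 with Gapdh and -0.15 with Aldoc. The part of this array measure in the shared order was not tested.

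In all, 4 of 15 member pairs had an exact permutation p under 0.05, which is 26.7%, against 16.0% of all 11476 gene pairs. After Benjamini-Hochberg adjustment over all 11476 pairs 0 passed, of the member pairs and of all pairs alike, and the adjusted p was 0.199 for Ldha with Ldhb, 0.213 for Pgk1 with either chain and 0.277 for Gapdh with Ldha, and higher for the remaining pairs. After quantile normalization the r of Pgk1 with Ldhb was 0.89 (exact permutation p = 0.10), and after cyclic loess that of Pgk1 with Ldha was 0.81 (exact permutation p = 0.0583). Both calls were lost as well relative to the fibre markers. All 15 member pairs had an r above 0, with a median of 0.60 against 0.06 for all pairs, but 6 pairs were below 0 after quantile normalization and 6 after cyclic loess. Aldoa and Aldoc had r = 0.67 (exact permutation p = 0.164, rho = 0.714, exact p = 0.136), and 0.50 without controls 1 and 5. Aldoa with Gapdh had the lowest, r = 0.28 (exact permutation p = 0.594, rho = 0.20, exact p = 0.714), and r ran from -0.74 to 0.88 when single controls were left out. The r of Aldoa with Ldhb was 0.53 with all samples (exact permutation p = 0.322, rho = 0.429, exact p = 0.419), 0.997 without control 1 and -0.14 without control 5. The r of Aldoa with Gapdh likewise was highest without control 1 and lowest without control 5. Without control 1 the r of Aldoa was 0.95 with Pgk1 and 0.87 with Ldha, and without control 5 it was 0.03 and -0.19. Without both controls the r of Aldoa was 0.997 with Ldhb, 0.99975 with Pgk1 and 0.97 with Ldha, but 0.13 with Gapdh.

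**Figure D4:**
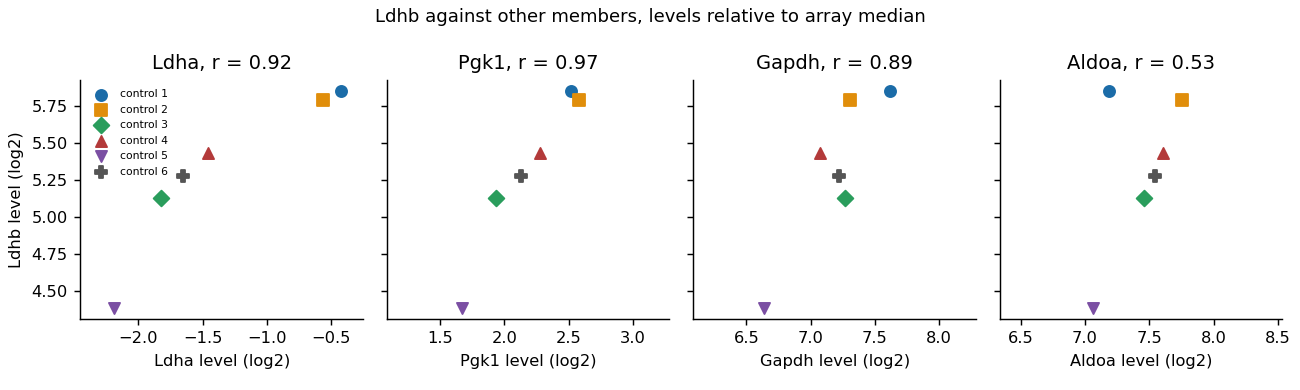
Level of Ldhb (vertical axis) against the levels of Ldha, Pgk1, Gapdh and Aldoa (horizontal axes), all log2 relative to the array median, with 1 symbol for each of controls 1 to 6. Pgk1 follows Ldhb in all samples (r = 0.97), while Aldoa departs from Ldhb in control 1, where its level was 7.18.

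All 6 members were lowest in control 5, and so were all 7 fibre markers, against 58 of 152, or 38.2%, of the genes measured. For Aldoc the margin to the next sample was 0.04. This depended on the scale. After quantile normalization 4 members and 1 fibre marker were lowest in control 5, with 39 of the 152 genes, and after cyclic loess 3 members and 2 markers, with 35 of the 152. Relative to the mean of the fibre markers 1 member and 1 marker were, with 14 of the 152. The mean level of the fibre markers was 5.50, 5.50, 5.03, 5.13, 4.65 and 4.95 in controls 1 to 6. In whole tissue a smaller share of muscle fibre and less of these RNAs per fibre cannot be told apart. Markers of other cells were measured on the same arrays. The 5 endothelial markers (Pecam1, Cdh5, Kdr, Tek, Flt1) were on the array and gave a summed intensity of 5.98 to 13.1 times the array median, highest in control 5 and lowest in control 1, with 4 or 5 of them above the noise bound. The single markers did not share this order. Pecam1 and Flt1 were highest in control 5, Cdh5 in control 4, Kdr in control 2 and Tek in control 1. The fibroblast markers Pdgfra and Fn1 gave 3.78 to 8.85 times, highest in control 1, with 1 or 2 probes above the bound. The adipocyte marker Fabp4 gave 3.02 to 10.5 times, highest in control 2, and the satellite cell markers 0.432 to 0.979 times, with Myf5 above the bound on 0 arrays. None of the blood and immune or nerve markers listed was on the array. The part of these cell types in the members' levels was not tested.

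Relative to the fibre markers, Gapdh, Pgk1, Ldha and Ldhb had smaller SDs than relative to the array median. In this comparison, chosen after the values were seen, each array was scaled on the mean log2 intensity of the 7 markers. Pgk1 was then at -2.98, -2.92, -3.10, -2.86, -2.98 and -2.82, with an SD of 0.10 and 1.21-fold between extremes. This was the smallest SD of the 145 genes that are not markers, whose median was 0.52. The next was that of Lpl, a lipase of triglyceride uptake, with 0.11. The SD of Gapdh was 0.18 in place of 0.32, that of Ldhb 0.24 in place of 0.53 and that of Ldha 0.40 in place of 0.71. The aldolases did not narrow in the same way, with 0.33 for Aldoa in place of 0.26 and 0.51 for Aldoc in place of 0.52. Aldoa lay at 1.68 relative to the markers in control 1 and at 2.26 to 2.60 in the other samples. On this scale the r of Pgk1 was 0.45 with Ldhb (exact permutation p = 0.439) and 0.18 with Ldha (exact permutation p = 0.783), and that of Ldha with Ldhb was 0.65 (exact permutation p = 0.050), so none of the close pairs passed.

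Other genes of glucose use were few on the array. Of 35 genes listed for the pathway, its inlets and its outlets, 7 were present and measured, and 5 were above the noise bound in all samples. The F test of limma called 0 of the 7 for excess or for low spread, against 1.32% and 0% of all genes, and 6 of the 7 had an SD below the median of 0.54. The glucose transporters Slc2a1 and Slc2a4 had SDs of 0.35 and 0.33, and both were lowest in control 5. Pdha1, a subunit of the enzyme that passes pyruvate to the mitochondria, had an SD of 0.50, and the malate dehydrogenase Mdh2 had 0.47. Both were lowest in control 5 as well. The enolase Eno2, above the bound in all samples, had a level of 0.59 ± 0.37 (SD, n = 6) and was lowest in control 6. Hk1, the hexokinase that traps glucose, and the transporter Slc2a3 were below the bound on some arrays and lowest in control 2.

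Outside the 6 members, the 3 genes whose levels were most like those of each member were taken by Pearson's r over the 6 arrays. Levels were relative to the array median. Picked as the highest of all genes outside the members, these r are high by selection. Of all 11476 gene pairs, 2.77% had an r above 0.92 and 11.5% an r above 0.79. For Ldhb they were Slc2a1 (0.98), Slc2a4 (0.96) and Pdha1 (0.96). For Ldha they were the fast myosin Myh4 (0.97), the transferrin receptor Tfrc (0.97) and the cell cycle inhibitor Cdkn1a (0.96). For Pgk1, whose r was as high or higher with Ldhb and Ldha, they were the protease Plau (0.96), which was above the bound on 3 arrays, Slc2a1 (0.94) and the slow myosin Myh7 (0.94). For Gapdh they were the topoisomerase Top3b (0.94), Slc2a1 (0.91) and the ribosomal protein gene Rps29 (0.91). Slc2a1 stood among the nearest 3 of Ldhb, Pgk1 and Gapdh, and Cox8a among those of both aldolases. Aldoa was nearest to the transporter Slc2a2 (0.98), the cytochrome oxidase subunit Cox8a (0.92) and the fatty acid oxidation enzyme Hadh (0.92). Aldoc was nearest to the transcription factor Srf (0.98), Cox8a (0.78) and Fgfr3 (0.77), the last above the bound on 1 array. A high r with the fast Myh4 was not particular to Ldha, since Ldhb had 0.92. The slow Myh7 had r = 0.90 with Ldha and 0.93 with Ldhb.

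As references for scaling, Pgk1 and Gapdh came out ahead of the other members with all 6 samples, by a small margin that single samples could turn. Each array was scaled on 1 gene alone, and the median SD of the other genes was taken as the measure, where a lower value means that less array-to-array difference was left. It was 0.95 with no scaling and 0.54 with the array median. Scaling on Pgk1 gave 0.52 and on Gapdh 0.52, ranks 9 and 12 of 152 genes used alone. Aldoa, the member with the smallest SD, gave 0.58 (rank 34) and Ldhb 0.59 (rank 36). Aldoc and Ldha left more, with 0.70 (rank 79) and 0.72 (rank 83), close to the 0.68 that the median gene gave. The mean of Aldoa, Gapdh and Pgk1 gave 0.51 and the mean of all 6 members 0.56. Of the members used alone, only Pgk1 and Gapdh gave a value below that of the array median. Under other settings the number of members that did so was 0 to 2: it was 0 without control 1 and 1 without control 2. Which members led also changed. Without control 1 Aldoa gave the lowest value of the members, 0.46 (rank 13), with 0.47 for Gapdh and for Pgk1. Without control 5 the pair below the array median was Pgk1 at 0.48 (rank 1) and Ldhb at 0.51 (rank 13), and Gapdh gave 0.52 (rank 18). Without control 6 Gapdh (0.55, rank 12) came before Pgk1 (0.56, rank 15).

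Of the other genes commonly used as references, none gave a lower value than Pgk1 or Gapdh with all 6 samples. This order was not compared under other settings. Rps29 gave 0.53 (rank 17), close to Gapdh and also below the 0.54 of the array median. The signalling adaptor Ywhaz gave 0.68 (rank 75), Tfrc 0.69 (rank 78) and 28S ribosomal RNA, Rn28s1, 0.79 (rank 97). Hprt, the purine salvage enzyme, was above the noise bound on 1 array and could not be used. The level of Rn28s1 was highest in control 2 and lowest in control 4, the array with the highest median intensity, with 2.85-fold between extremes. Timp1, a protease inhibitor, gave 0.48, the lowest of all genes used alone.

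**Figure D5:**
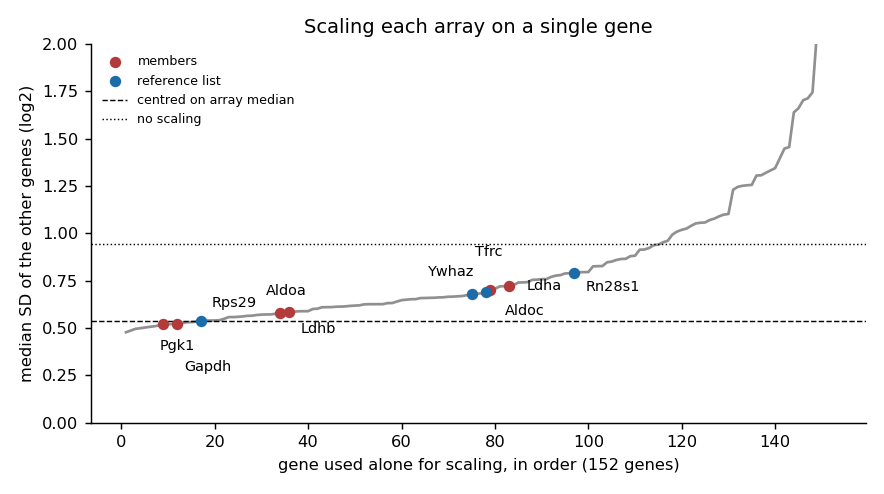
Median SD of the other genes (log2) when each array is scaled on a single gene, with the 152 genes in increasing order along the horizontal axis, the 6 enzymes in red and 4 other reference genes in blue. Pgk1 and Gapdh (0.52) lie just under the dashed line for centring on the array median (0.54), and Aldoc and Ldha (0.70 and 0.72) lie above it but under the dotted line for no scaling (0.95). The vertical axis stops at 2, which leaves out the highest genes.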

How the data were processed

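Expression in soleus muscle of 6 control samples of mice was measured on arrays of 223 probes. The authors deposited 1 linear intensity per probe and array; the labels name no scanner, and how background and scale were treated is likewise not stated there. The deposited intensities reach below 0 on every array and were not on a common level. Probes were named through the platform annotation, and the Entrez identifiers of all 6 members gave the same symbols in RefSeq's mouse table (GRCm38.p6), which was used for names only. Probe sequences were not used, so cross-hybridisation between paralogs was not checked.

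Probes above 0 on all 6 arrays were brought to log2, probes of 1 gene were averaged, and each array was centred on its median over the resulting 152. Spread was tested with limma 3.58.1 in R 4.3.3 (intercept only, robust prior with intensity trend, 6.12 prior degrees of freedom, adjusted p under 0.05), after a check on simulated data. Permutation tests, ratios and scaling were computed in Python 3.11.15 with scipy 1.17.1. The plan adjusted the correlations over the member pairs; since members and lists were chosen with earlier results of these data known, adjustment over all pairs of genes was used instead. The text names all members, the 3 genes most like each by r, and the genes of the pathway, reference, fibre and cell type marker lists. Lpl, Timp1, Ldhc, Hif1a, Pfkfb2, Pcx, Pdha2 and Vhl were named after their values were seen. Alternatives covered filters, scaling, background, prior and each array left out. Arrays give no counts, and their number limits the precision.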

Additional observations from a re-analysis of the deposited data

Results flagged for a closer look

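Of 41 sets of 6 values examined, 4 had a sample far from the others, where chance flags about 1 set in 20. The sets were levels of the members, of the genes most like them, and of the measured pathway, reference and fibre marker genes. The isoform ratios, the members relative to the fibre markers and the mean level of these markers were included. Other genes named, such as the markers of other cells, Lpl, Timp1, Ldhc and Hif1a, were not examined in this way. Among the members, the level of Aldoa relative to the fibre markers was 1.68 in control 1, with 0.58 to the next sample. Its level relative to the array median, 7.18 in control 1, was not set apart in this way. Of the other genes, Myh1 stood at 5.41 in control 1, Mb at 7.71 in control 2, and Rps29, one of the reference genes, at 4.60 in control 5. Myh1 and Mb are among the 7 fibre markers used for scaling.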

How the results depend on the processing

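The calls for spread rested on genes other than the members: 0 of the 6 members passed in any setting. The number of genes with excess spread was 2 as reported. It was 1 with probes above 0 on at least 4 arrays and with values raised to the noise bound, 0 with the noise-bound filter, after quantile normalization, after cyclic loess, without the intensity trend and without robust estimation, and 0 to 2 when single samples were left out. The number with low spread was 0 as reported and 1 after quantile normalization or cyclic loess. The SD of the Ldhb to Ldha ratio was 0.30 as reported, 0.58 after quantile normalization and 0.54 after cyclic loess, and 0.26 to 0.34 without single samples. Its mean was 6.14 with intensities moved up by the noise bound and 7.54 with them moved down, a comparison chosen after seeing the data. The mean of the Aldoa to Aldoc ratio and its SD held in all settings to within 1 SD and 1.5 times, with SDs of 0.29 to 0.44 without single samples.

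Member pairs with an exact permutation p under 0.05 numbered 4 as reported, 3 with Spearman's rho (where 11.6% of all pairs did), 2 after quantile normalization, 2 after cyclic loess, 1 relative to the fibre markers, and 3 to 6 without single samples. The pair left relative to the fibre markers was Aldoc with Pgk1, at r = 0.91. The r of Gapdh and Ldha was -0.49 after cyclic loess and -0.36 relative to the fibre markers. Other r of member pairs that missed the threshold as reported changed sign. After quantile normalization r was -0.40 for Aldoa with Gapdh, -0.30 with Pgk1, -0.69 with Ldha and -0.034 with Ldhb, and -0.30 for Aldoc with Gapdh and -0.016 with Ldha. After cyclic loess r was -0.84 for Aldoa with Pgk1, -0.71 with Ldha and -0.65 with Ldhb, and -0.064 for Gapdh with Pgk1 and -0.044 with Ldhb. Relative to the fibre markers r was -0.78 for Aldoa with Ldha, -0.28 for Aldoa with Ldhb, -0.20 for Aldoc with Ldha and -0.17 for Gapdh with Pgk1. With probes above 0 on at least 4 arrays r was -0.0079 for Aldoa with Ldha. Without single samples r ran from -0.74 to 0.88 for Aldoa with Gapdh, from -0.19 to 0.87 for Aldoa with Ldha, from -0.14 to 0.997 for Aldoa with Ldhb and from -0.37 to 0.49 for Aldoc with Gapdh, the lowest each time without control 5. The r of Pgk1 with Ldhb was 0.89 after quantile normalization (exact permutation p = 0.10) and that of Pgk1 with Ldha 0.81 after cyclic loess (exact permutation p = 0.0583). Members whose use for scaling left less spread than the array median numbered 2 as reported, 0 with probes above 0 on at least 4 arrays, 1 with values raised to the noise bound, 0 with the mean in place of the median SD, and 0 to 2 without single samples, with Ldhb in place of Gapdh without control 5. The causes of these changes were not tested. No paired analysis was possible because the labels define a single group.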

Other observations

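The third lactate dehydrogenase gene on the array, Ldhc, best known from testis, was named after its values were seen. It was above the noise bound on 5 of 6 arrays, with a level of -1.08 ± 0.87 (SD, n = 6) between -2.30 and 0.0045, lowest in control 2 and highest in control 6. Hif1a, the hypoxia-inducible factor, was above the bound on 3 arrays. Pfkfb2 and the pyruvate carboxylase Pcx were above it on 2 arrays each, and Pdha2 and Vhl on 0.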
